A study of Homo sapiens with 8 samples.

Results

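Metallothioneins are small cytoplasmic proteins, rich in cysteine, that bind zinc and copper and take up cadmium and other heavy metals. Their genes are classic targets of MTF1, a zinc finger transcription factor that senses free zinc and binds metal response elements upstream of its targets, among them SLC30A1, whose protein ZnT1 exports zinc across the plasma membrane. Glucocorticoids, oxidants and inflammatory signals also induce metallothionein genes. The genes described here are 6 metallothioneins (MT2A, MT1E, MT1X, MT1F, MT1G and MT1M), the zinc exporter SLC30A1 and MTF1 itself, taken by symbol, 8 of the 61228 genes in the deposited table of raw counts. Of the 8, 5 passed the filter on low counts (MT2A, MT1E, MT1X, SLC30A1 and MTF1), each with at least 66 counts in every library.

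The libraries are poly(A) RNA-seq of MDA-MB-231, an established line of human triple-negative breast cancer. Cells nucleofected with Cas9 and guides against ETV1, ETV4 and ETV5, transcription factors of the PEA3 family, are called knockout, and cells nucleofected with control guides are called control. The 4 groups of 2 libraries were knockout cells in collagen I gels, control cells in collagen I gels, knockout cells as monolayers on plastic and control cells as monolayers on plastic. All groups grew in DMEM/F12 with serum, and no label names zinc, cadmium or another metal as a treatment. The control monolayer label names control guides without Cas9, while the control gel label names Cas9 too. If these labels are complete, the targeting guides and Cas9 cannot be told apart in knockout against control monolayers. The same then holds for culture and Cas9 in control cells, and it enters the difference of knockout effects. The knockout labels name no selected clone, and collagen was at 1 of 2 concentrations that the labels do not assign to samples. Gels were digested with collagenase at 37 °C, pipetted, washed and frozen before RNA extraction, while monolayers were extracted directly, so culture in collagen and this harvest cannot be told apart. No label says that replicate libraries were grown apart, and the p-values measure only the spread between these libraries.

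Library totals ran between 15824504 and 23896899 counts. ETV1 had 138 and 141 CPM (counts per TMM-adjusted library total, scaled to one common depth) in knockout gels against 222 and 217 CPM in control gels, and 136 and 151 CPM in knockout monolayers against 200 and 205 CPM in control monolayers. ETV4 was likewise lower (log2 -0.57 in gels and -0.45 in monolayers, edgeR adjusted p 3.61e-09 and 9.94e-07), while ETV5 did not pass the test in gels (log2 0.02) or in monolayers (log2 0.03). Transcript level alone does not measure loss of function at an edited gene. VIM, CD44, EGFR, CAV1 and AXL, all high in this mesenchymal line, were at 256 CPM or more in every library. ESR1 and PGR were at 0.0805 CPM or less and CDH1 at 0.382 CPM or less, while of the other markers listed as low GRB7 was at 1.26 to 3.47 CPM, ERBB2, the third receptor, at 56.4 to 69.4 CPM and KRT8 at 386 to 554 CPM. The summed level of 7 markers of leukocytes, endothelium and fibroblasts was 6.63 to 8.50 CPM in knockout gels, 11.5 to 11.9 CPM in control gels, 13.6 to 14.4 CPM in knockout monolayers and 14.2 to 15.1 CPM in control monolayers. Most of it was PECAM1 and PDGFRB, and its part in the results below was not tested. In such bulk samples a change in the share of cells that express a gene and a change in RNA per cell cannot be told apart.

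The 6 metallothionein genes lie within 76.0 kb of chromosome 16 (GRCh38, GENCODE 29). MT2A is at chr16:56608199-56609497, MT1E at chr16:56625475-56627112, MT1M at chr16:56632233-56633986, MT1F at chr16:56657694-56660698 and MT1X at chr16:56682424-56684196, all on the plus strand, and MT1G is at chr16:56666731-56668065 on the minus strand. SLC30A1 (chr1:211571568-211578742) and MTF1 (chr1:37809567-37859620) are on the minus strand of chromosome 1. The reading frames of the 3 metallothioneins with measurable expression follow, from the annotated transcripts, because their likeness bears on how reads are assigned among them and because they show the cysteine content on which metal binding rests. Capitals mark the cysteine codons, TGC and TGT.
MT2A: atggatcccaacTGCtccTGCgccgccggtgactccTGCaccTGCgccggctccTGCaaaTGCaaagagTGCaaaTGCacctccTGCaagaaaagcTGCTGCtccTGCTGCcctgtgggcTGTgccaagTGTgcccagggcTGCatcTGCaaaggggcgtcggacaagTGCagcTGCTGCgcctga
MT1E: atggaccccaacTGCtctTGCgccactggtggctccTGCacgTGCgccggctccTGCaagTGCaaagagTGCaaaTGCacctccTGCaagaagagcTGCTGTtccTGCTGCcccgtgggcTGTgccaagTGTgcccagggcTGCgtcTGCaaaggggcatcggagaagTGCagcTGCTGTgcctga
MT1X: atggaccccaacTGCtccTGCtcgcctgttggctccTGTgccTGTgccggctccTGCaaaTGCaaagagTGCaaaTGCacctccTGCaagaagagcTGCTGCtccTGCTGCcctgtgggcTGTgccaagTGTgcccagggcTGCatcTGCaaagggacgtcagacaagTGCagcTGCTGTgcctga

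Each frame has 186 bases including the stop codon and 20 cysteine codons, 32.8% of its amino acid codons, and MT1F, MT1G and MT1M have the same length and number. Identity over these bases was 92.5% between MT2A and MT1E, 92.5% between MT2A and MT1X and 90.9% between MT1E and MT1X. Over all pairs of the 6 it ranged between 88.7% and 95.2%. No stretch of 100 bases in the transcripts of MT2A or MT1E occurred in another annotated gene, while 10.6% of the stretches of 50 bases in MT1E and 4.88% of those in MT2A did. In MT1X, 50.8% of the stretches of 100 bases also belonged to a single overlapping gene (ENSG00000259827) on the same strand, which had 0 counts in all 8 libraries. The sources used here do not say how reads that fit more than 1 gene were counted, so counts of MT1X in particular are uncertain.

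Promoter windows, the 250 bases before the RefSeq start of transcription (GRCh38.p14), were found for 4 of the 8 genes, namely MT2A, MT1X, SLC30A1 and MTF1. The RefSeq and GENCODE starts differ. The MT2A window lies wholly inside the GENCODE gene interval given above, and the MT1X and MTF1 windows lie partly inside theirs. The first 3 are printed because they hold matches to the metal response element core, the site MTF1 binds, marked in capitals. The core was searched as TGCACNC or TGCGCNC on both strands.
MT2A, chr16:56608334-56608583, plus strand: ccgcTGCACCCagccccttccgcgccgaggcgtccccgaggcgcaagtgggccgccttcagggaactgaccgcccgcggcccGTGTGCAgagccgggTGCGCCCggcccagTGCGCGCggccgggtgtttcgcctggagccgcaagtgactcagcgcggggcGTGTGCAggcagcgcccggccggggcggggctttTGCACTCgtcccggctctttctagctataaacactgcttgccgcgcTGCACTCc
MT1X, chr16:56682220-56682469, plus strand: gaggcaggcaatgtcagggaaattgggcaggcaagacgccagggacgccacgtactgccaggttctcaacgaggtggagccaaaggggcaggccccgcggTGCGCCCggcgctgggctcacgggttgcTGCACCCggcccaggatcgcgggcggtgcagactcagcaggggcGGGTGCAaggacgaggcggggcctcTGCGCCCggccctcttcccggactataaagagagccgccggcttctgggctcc
SLC30A1, chr1:211579162-211579411, minus strand: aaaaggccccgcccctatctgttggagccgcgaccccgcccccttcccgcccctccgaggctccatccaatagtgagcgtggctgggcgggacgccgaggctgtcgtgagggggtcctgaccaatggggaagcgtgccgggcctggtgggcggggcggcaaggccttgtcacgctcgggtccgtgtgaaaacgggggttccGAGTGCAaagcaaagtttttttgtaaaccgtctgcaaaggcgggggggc

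The MT2A window held 7 matches to the core, against a share of 0.0313% of 35116 windows (11 windows) with at least 7. The MT1X window held 4, and at least 4 occurred in 0.37% of windows. The SLC30A1 window held 1 match, 49 to 43 bases before the RefSeq start on the opposite strand, and at least 1 occurred in 24.8% of windows. The MTF1 window held no match. Each of MT2A, MT1X and SLC30A1 also held 1 match to the antioxidant response element (TGACNNNGC, both strands), which was present in 10.9% of windows and overlapped no metal response element match in these 3. The PEA3 site that factors of the ETV4 family can bind (AGGAAG, both strands) had no match in these 3 windows and 2 in the MTF1 window, against at least 2 in 5.77% of windows. These letters are matches in one window per gene and were not measured as bound sites.

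**Figure D1:**
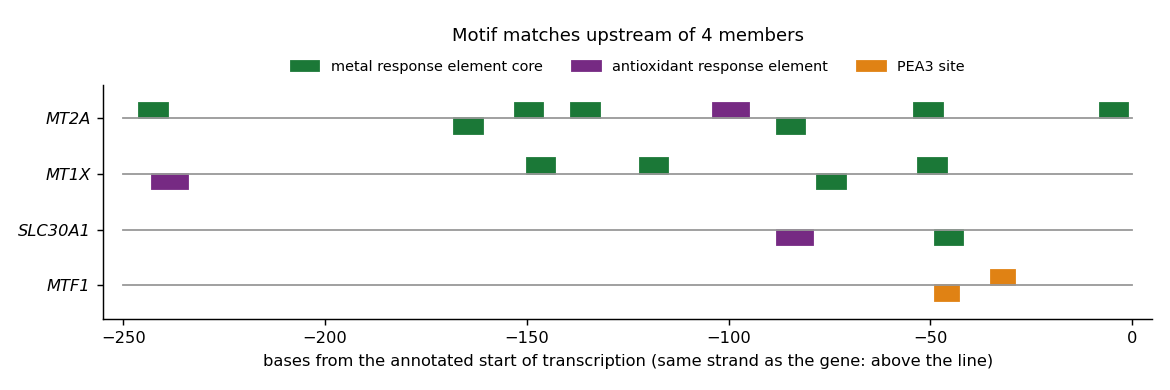
Positions of motif matches in the 250 bases before the RefSeq start of MT2A, MT1X, SLC30A1 and MTF1 (x axis, bases from the start, matches on the strand of the gene above each line and on the other strand below it). MT2A held 7 metal response element cores, MT1X 4, SLC30A1 1 and MTF1 none.

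The transcripts covered a wide range of levels. Per kilobase of median transcript length, MT2A was at 775 CPM in knockout gels, 795 in control gels, 437 in knockout monolayers and 435 in control monolayers. MT1E followed at 113, 104, 27.2 and 28.3 CPM per kilobase in the same order of groups, and MT1X at 20.8, 24.4, 8.23 and 10.8. SLC30A1 was at 12.9, 11.5, 5.86 and 3.73 CPM per kilobase and MTF1 at 3.53, 3.42, 3.23 and 2.98. In each group the order was MT2A, MT1E, MT1X, SLC30A1, MTF1, and no library of a gene reached the level of the next gene above it. MT1F, MT1G and MT1M lay below all 5.

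The question the culture comparison addresses is how gene expression differs between cells in collagen I and cells on plastic. All 3 measurable metallothioneins and SLC30A1 were higher in gels than in monolayers, in knockout and in control cells alike, with MT1E moving furthest among the metallothioneins. Their regulator MTF1 did not pass the test. In knockout cells 4 of the 5 tested genes were called higher (edgeR, adjusted p under 0.05), against 20.1% of all 15568 tested genes called higher, 17.9% called lower and 38% called in either direction. In control cells 4 of 5 were called higher too, against 16% called higher, 10.7% called lower and 26.7% called in either direction. The median log2 fold change of the 5 genes was 1.13 in knockout cells, where that of all tested genes was -0.01, and 1.15 in control cells, where that of all tested genes was 0.01. The share of calls that were higher depended on the scaling of libraries: it was 52.8% in knockout cells and 59.8% in control cells with TMM, 40.6% and 43.4% with upper-quartile factors, and 37.1% and 30.6% with library totals alone.

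MT2A, the most abundant of the family and expressed in most tissues, had 537 and 523 CPM in knockout gels against 298 and 299 CPM in knockout monolayers. In control cells it had 550 and 536 CPM in gels against 296 and 298 CPM in monolayers. The 4 gel libraries all lay above the 4 monolayer libraries, with no overlap. The log2 fold change was 0.83 ± 0.045 in knockout cells (SE, edgeR adjusted p 1.09e-16) and 0.87 ± 0.044 in control cells (adjusted p 3.77e-17), folds of 1.77 and 1.83.

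MT1E, an isoform gene of the MT1 group, had 82.3 and 76.3 CPM in knockout gels against 18.8 and 19.5 CPM in knockout monolayers. In control cells it had 75.3 and 71.4 CPM in gels against 20.4 and 19.4 CPM in monolayers. Gel and monolayer libraries stood far apart, with the lowest gel library at 71.4 CPM and the highest monolayer library at 20.4 CPM. The fold was 4.14 in knockout cells (log2 2.05 ± 0.075, edgeR adjusted p 1.42e-21) and 3.67 in control cells (log2 1.88 ± 0.073, adjusted p 1.23e-20). Ordered by log2 fold change, MT1E was number 21 of 15568 tested genes in knockout cells and number 26 in control cells.

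MT1X, another isoform gene of the MT1 group, had 10.0 and 10.5 CPM in knockout gels against 3.99 and 4.14 CPM in knockout monolayers. In control cells it had 12.5 and 11.6 CPM in gels against 5.76 and 4.96 CPM in monolayers. Gels were higher without overlap, on 66 to 260 counts per library. The log2 fold change was 1.34 ± 0.15 in knockout cells (SE, edgeR adjusted p 1.45e-08) and 1.15 ± 0.14 in control cells (adjusted p 5.48e-08).

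SLC30A1, the exporter that lowers cytoplasmic zinc, had 71.4 and 69.6 CPM in knockout gels against 28.9 and 35.2 CPM in knockout monolayers. In control cells it had 64.5 and 61.3 CPM in gels against 20.0 and 20.8 CPM in monolayers. Gels were higher than monolayers without overlap, and the 2 knockout monolayer libraries were the least alike. The log2 fold change was 1.13 ± 0.075 in knockout cells (SE, edgeR adjusted p 3.75e-14) and 1.63 ± 0.079 in control cells (adjusted p 8.76e-18), folds of 2.19 and 3.09.

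MTF1, the zinc sensor, had 27.4 and 28.8 CPM in knockout gels against 25.6 and 26.0 CPM in knockout monolayers. In control cells it had 28 and 26.5 CPM in gels against 23.4 and 24.1 CPM in monolayers. The gel libraries were slightly higher without overlap, the lowest at 26.5 CPM and the highest monolayer library at 26.0 CPM. How many of all tested genes separate in this way was not counted. The difference was log2 0.12 in knockout cells (95% interval -0.04 to 0.29, edgeR adjusted p 0.242). In control cells the difference was 0.20 (95% interval 0.04 to 0.37, adjusted p 0.0632), and neither passed the threshold. With a correction for transcript length and GC content, the difference in control cells passed (log2 0.29, adjusted p 0.00422, where the adjusted p over the alternatives reached 0.35).

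**Figure D2:**
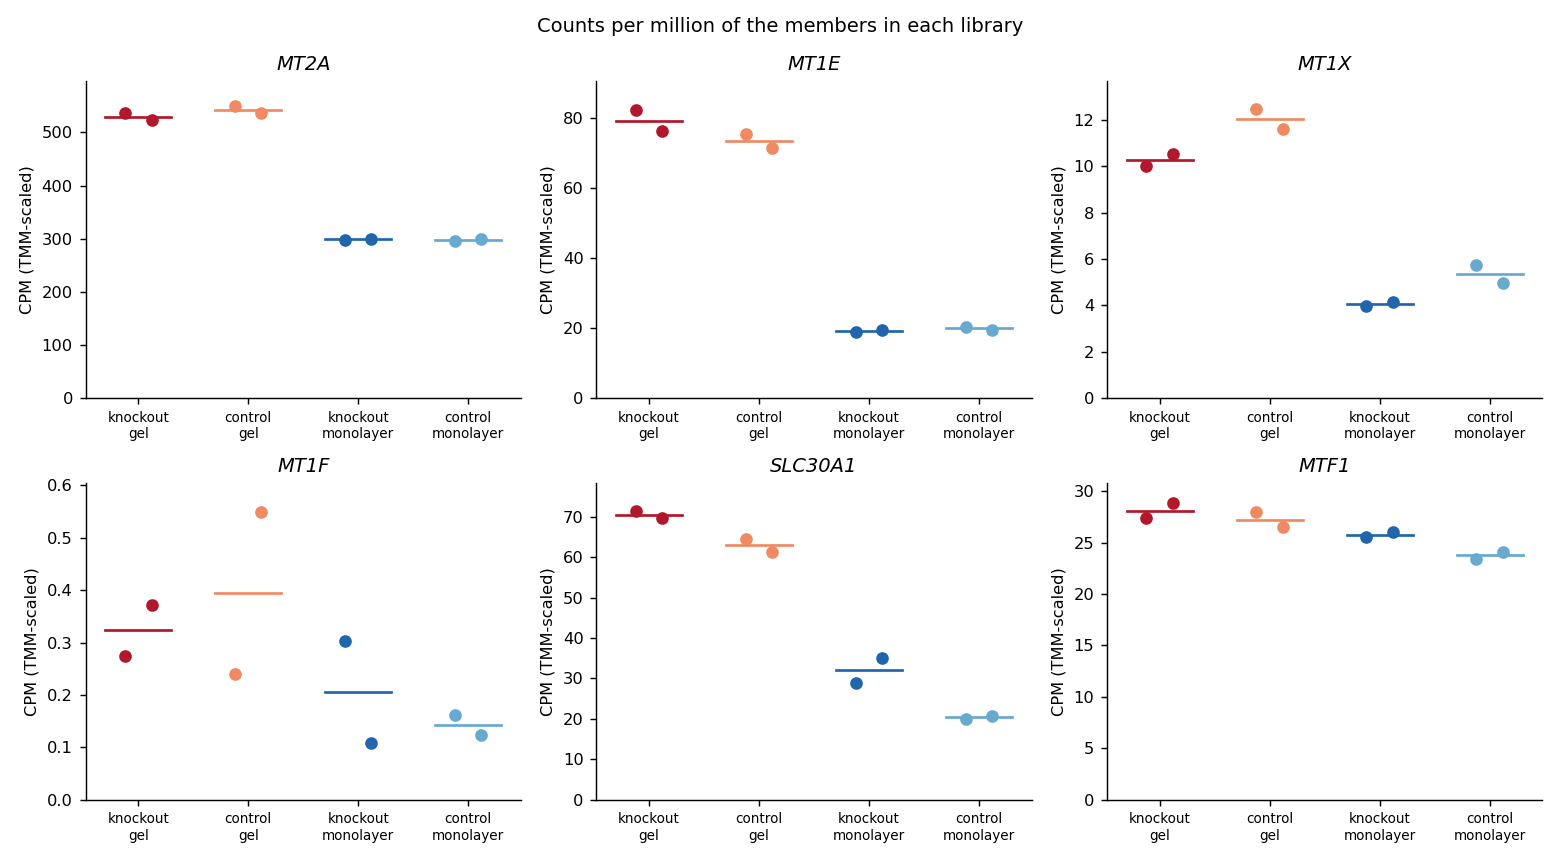
CPM of the 6 genes with more than 1 count, in each library (y axis, TMM-scaled CPM from 0, 1 panel per gene; points are libraries and lines are the means of 2). MT2A, MT1E, MT1X, SLC30A1 and, by a small margin, MTF1 were higher in all 4 gel libraries than in all 4 monolayer libraries. MTF1 lay between 23.4 and 28.8 CPM throughout, and MT1F rested on 2 to 10 counts per library.

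MT1F, MT1G and MT1M were at the limit of detection and were not tested. MT1F had 5 and 7 counts in knockout gels, 5 and 10 in control gels, 5 and 2 in knockout monolayers and 4 and 2 in control monolayers. The groups summed to 12, 15, 7 and 6 counts in that order, with overlap between gels and monolayers in knockout cells but not in control cells. A fit without the filter on low counts gave a log2 difference between gels and monolayers of 0.68 in knockout cells (edgeR adjusted p 0.734) and 1.36 in control cells (adjusted p 0.320). MT1G had 1 count, in a control gel library, and MT1M had 0 counts in all 8 libraries. For a gene at 0, a floor of 3 counts over the 2 libraries of a group allows up to 0.0809 CPM in knockout gels, 0.0768 in control gels, 0.086 in knockout monolayers and 0.0732 in control monolayers, counting error only. The 15 other metallothionein genes and pseudogenes in the table, including the brain isoform MT3 and the epithelial isoform MT4, all failed the filter, with 3 to 9 counts per library between them.

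Added up over the 6 genes, metallothionein transcripts reached 629 and 610 CPM in knockout gels, 638 and 619 CPM in control gels, 321 and 323 CPM in knockout monolayers, and 322 and 323 CPM in control monolayers. The means were 620 ± 13.7, 629 ± 13.5, 322 ± 1.18 and 323 ± 0.406 CPM in that order (SD, n = 2). The composition differed as well. MT1E made up 13.07% and 12.5% of metallothionein counts in knockout gels and 11.8% and 11.53% in control gels, against 5.845% and 6.026% in knockout monolayers and 6.329% and 6.012% in control monolayers. The lowest exact binomial 95% bound of a gel library was 10.95% and the highest of a monolayer library was 6.884%, intervals that cover counting error only. MT2A held 85.3% to 86.5% of metallothionein counts in gels and 91.8% to 92.8% in monolayers, so it remained the bulk of the family in both cultures.

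**Figure D3:**
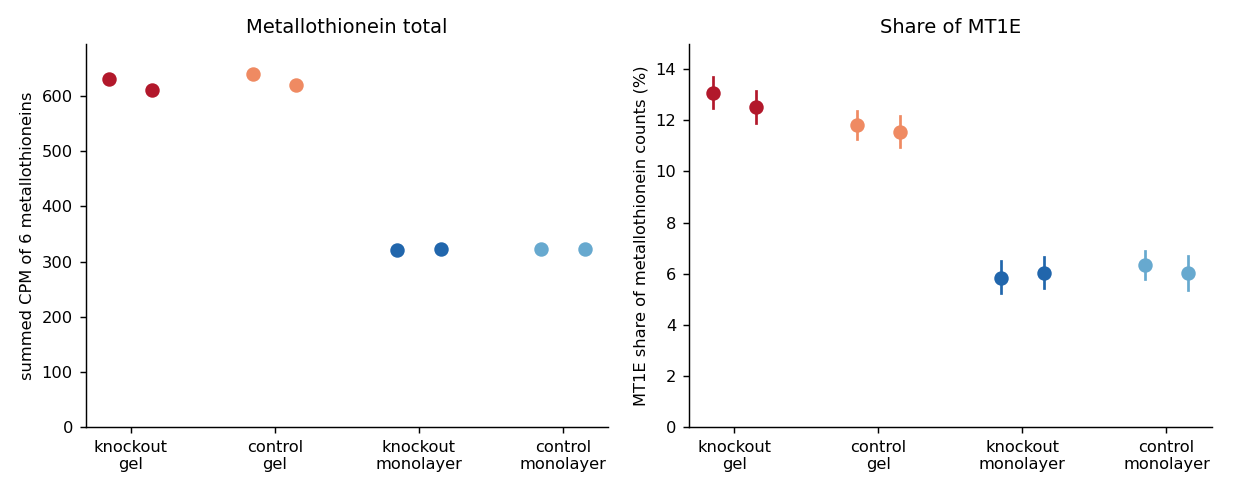
Left, summed CPM of the 6 metallothioneins in each library (y axis from 0). Right, the percentage of metallothionein counts that came from MT1E, with exact binomial 95% intervals for counting error; it was 11.53% to 13.07% in gels and 5.845% to 6.329% in monolayers.

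The knockout comparison asks what differs when ETV1, ETV4 and ETV5 are targeted. In monolayers the control label names no Cas9, so targeting and Cas9 may not be told apart there. Between knockout and control the 3 metallothioneins and MTF1 did not pass the test in either culture, while SLC30A1 was higher in knockout monolayers. The 2 culture comparisons and the 2 knockout comparisons share libraries and are not independent of each other. In monolayers 1 of the 5 tested genes was called, SLC30A1, against 19.2% of all tested genes (9.6% higher and 9.6% lower), and in gels 0 of 5 were called by edgeR and 0 by DESeq2, against 23.9% of all tested genes (11.5% higher and 12.4% lower). SLC30A1 in gels was the only one of the 5 with an unadjusted p under 0.05 there (0.0232). The median log2 fold change of the 5 was 0.04 in gels, where that of all tested genes was 0.00, and 0.01 in monolayers, the same as that of all tested genes.

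The levels above give 28.9 and 35.2 CPM of SLC30A1 in knockout monolayers against 20.0 and 20.8 CPM in control monolayers, without overlap. The log2 fold change was 0.66 ± 0.086 (SE, edgeR adjusted p 3.58e-07), a rise of 57.8%, and it stayed between 0.51 and 0.77 over the alternatives. In gels the knockout libraries were at 71.4 and 69.6 CPM against 64.5 and 61.3 CPM in control libraries. The log2 fold change there was 0.16 ± 0.069 (edgeR adjusted p 0.0828), which did not pass. The effect of the knockout in gels minus that in monolayers was -0.49 ± 0.11 on the log2 scale (edgeR adjusted p 0.00349), a test that called 6.6% of all tested genes (2.67% higher and 3.94% lower). Without the second knockout monolayer library, the one at 35.2 CPM, this difference was -0.35 with adjusted p 0.069, where the alternatives ran between 0.000172 and 0.069. Without the first knockout monolayer library the effect in gels passed the threshold (log2 0.18, adjusted p 0.0334, alternatives between 0.0334 and 0.392).

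For MT2A the log2 fold change of knockout against control was -0.04 in gels (95% interval -0.12 to 0.05) and 0.01 in monolayers (95% interval -0.08 to 0.10). For MT1E it was 0.11 in gels (95% interval -0.02 to 0.24, edgeR adjusted p 0.212) and -0.06 in monolayers (95% interval -0.24 to 0.11, adjusted p 0.683). Libraries of knockout and control overlapped for MT2A in both cultures, for MT1E in monolayers and for MTF1 in gels. They did not overlap for MT1E in gels, for MTF1 in monolayers or for MT1X in either culture. The intervals of MT2A and MT1E limit a knockout effect without showing that the values were alike. The log2 fold change of MT1X was -0.23 in gels (95% interval -0.48 to 0.02, edgeR adjusted p 0.178). In monolayers it was -0.41 (95% interval -0.75 to -0.07, edgeR unadjusted p 0.0184, adjusted p 0.0809), and neither passed. The knockout libraries of MT1X were the lower ones in both cultures. MTF1 differed by 0.04 in gels (adjusted p 0.747) and 0.12 in monolayers (adjusted p 0.345), where the length and GC correction gave 0.27 with adjusted p 0.014 and the alternatives reached 0.708. The difference of the knockout effects between gels and monolayers was not called for MT2A, MT1E, MT1X or MTF1 (adjusted p 0.774, 0.399, 0.702 and 0.782).

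**Figure D4:**
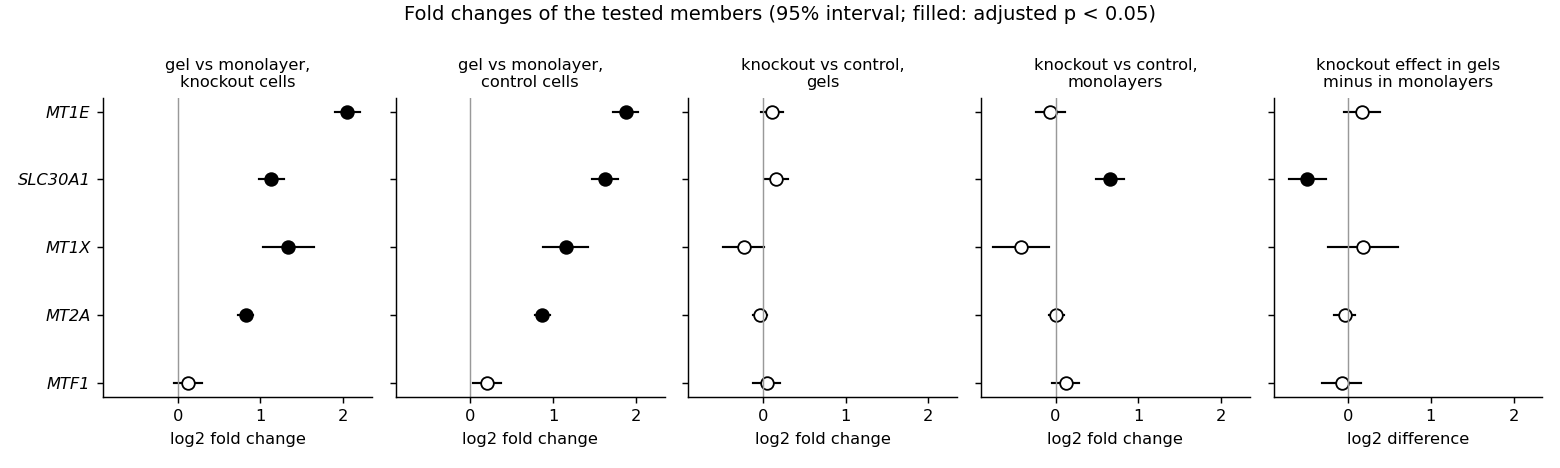
Log2 fold changes of the 5 tested genes with 95% intervals in each comparison (x axis, log2, same range in all panels; filled points have an edgeR adjusted p under 0.05). MT1E, SLC30A1, MT1X and MT2A were higher in gels in knockout and in control cells, and SLC30A1 alone of the 5 was called in monolayers (0.66) and in the difference of knockout effects (-0.49).

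The other zinc transporters were measured as 2 families. Proteins of the SLC30 family move zinc out of the cytoplasm, over the plasma membrane or into vesicles, and those of the SLC39 family move zinc into it. The counts of called genes in these and the lists that follow stand against the shares of all tested genes: 20.1% higher and 17.9% lower for gels in knockout cells, 16% and 10.7% for gels in control cells, 11.5% and 12.4% for the knockout in gels, and 9.6% and 9.6% for the knockout in monolayers. Of the 9 other SLC30 genes 6 were tested. In gels against monolayers 1 was higher in knockout cells, SLC30A6 of the Golgi (log2 0.27, edgeR adjusted p 0.00275, lost without the first knockout monolayer library with adjusted p 0.0857, the highest over the alternatives), and none in control cells by edgeR or DESeq2 (2 at an unadjusted p under 0.05). The median log2 fold change of these 6 was 0.08 in knockout cells and 0.06 in control cells. SLC30A1, with 1.13 and 1.63, was the largest change among the 7 tested genes of its family in both.
Of 14 SLC39 genes 11 were tested. In knockout cells 3 were higher and 2 lower in gels, and in control cells 2 were higher and 1 lower, with medians of 0.03 and 0.10 on the log2 scale, counts near those shares. The smallest adjusted p was that of SLC39A10, a plasma membrane zinc importer, which had 48.1 and 50.8 CPM in knockout gels against 84.5 and 90.2 CPM in knockout monolayers, and 54.9 and 53.9 CPM in control gels against 98.2 and 104 CPM in control monolayers. It fell without overlap, by log2 -0.82 ± 0.062 in knockout cells (adjusted p 1.2e-12) and -0.89 ± 0.060 in control cells (adjusted p 1.36e-13). SLC39A14, which imports zinc and iron, was higher in gels in knockout cells (log2 0.25, adjusted p 0.00041). SLC39A3 (log2 0.25 in knockout cells and 0.31 in control cells) and SLC39A8 (0.22 and 0.19) were higher in both. In control cells both calls were lost without the first control monolayer library or either control gel library. In knockout cells that of SLC39A8 was lost without the first knockout monolayer library or the second knockout gel library. The SLC39A3 call in knockout cells (edgeR adjusted p 0.0339) was not recomputed under the alternatives. In knockout against control, 3 of the 6 SLC30 genes were higher in gels (SLC30A5, SLC30A6 and SLC30A7, log2 0.20 to 0.22) and none in monolayers by edgeR or DESeq2 (1 at an unadjusted p under 0.05). Of the 11 SLC39 genes, 2 were higher in gels (SLC39A14, log2 0.18, and SLC39A7, 0.13), and in monolayers 2 were higher (SLC39A3, 0.28, and SLC39A7, 0.13) and 1 lower (SLC39A10, -0.21). Every one of these 8 knockout calls was lost when at least 1 control or knockout library was left out, and the highest adjusted p over their alternatives was 0.449.

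**Figure D5:**
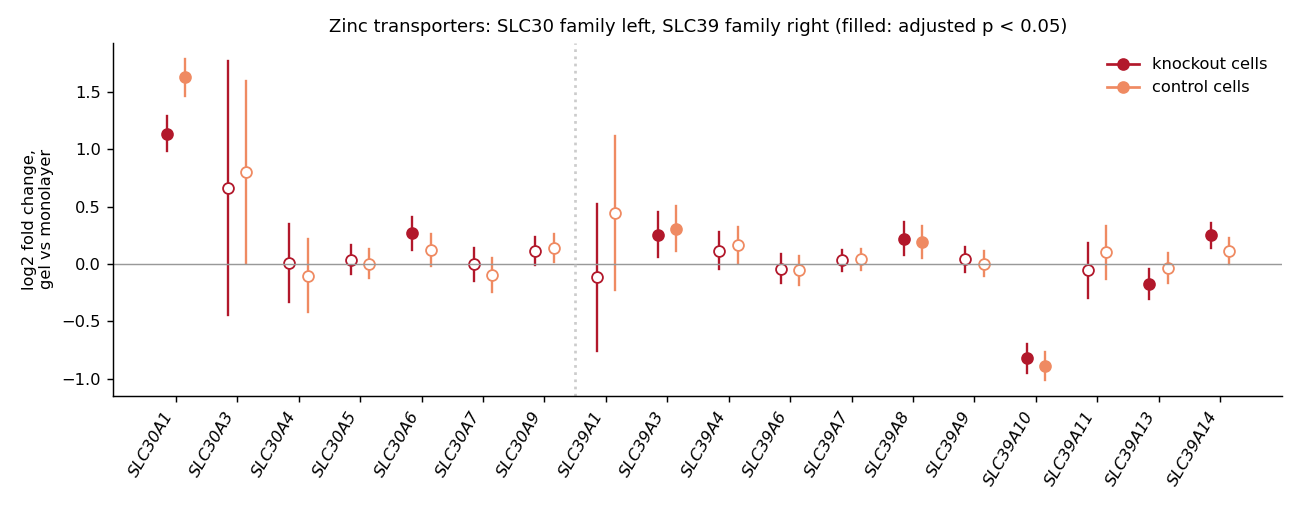
Log2 fold change of gels against monolayers for the tested SLC30 (left) and SLC39 (right) zinc transporters in knockout and control cells (points with 95% intervals; filled points have an edgeR adjusted p under 0.05). SLC30A1 stood at 1.13 and 1.63 and SLC39A10 at -0.82 and -0.89, while the other called genes differed by 0.31 or less.

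Other genes that respond to metals were counted as lists. Of 10 genes of the heavy metal and oxidant stress response outside the metallothioneins, all tested, 2 were higher and 3 lower in gels against monolayers in knockout cells, and none higher and 2 lower in control cells by edgeR and by DESeq2 (3 at an unadjusted p under 0.05), with medians of -0.02 and -0.04, near the shares of all tested genes in knockout cells. The inducible chaperone gene HSPA1A, a marker of protein damage that cadmium raises, was at 16 and 17.1 CPM in knockout gels against 28.5 and 25.4 CPM in knockout monolayers (log2 -0.70, edgeR adjusted p 7.27e-07). Its neighbour HSPA1B was lower there too (log2 -0.41) and the cystine transporter gene SLC7A11 higher (0.56). HSPA1B was not called in control cells (log2 -0.06, edgeR adjusted p 0.469). In control cells the log2 fold change of HSPA1A was -0.39 (adjusted p 0.00245), lost without the first control monolayer library (adjusted p 0.0587) and without the second control gel library (0.112, the highest over the alternatives). The thioredoxin reductase gene TXNRD1 was lower in control cells (log2 -0.16), lost without the second control monolayer library or either control gel library (adjusted p up to 0.122). HMOX1, heme oxygenase, had 9.04 and 10.6 CPM in knockout gels, 9.84 and 11 CPM in control gels, 14.0 and 14.6 CPM in knockout monolayers, and 10.2 and 11 CPM in control monolayers. It was lower in gels in knockout cells (log2 -0.54, edgeR adjusted p 0.000536) and higher in knockout than in control monolayers (0.44, adjusted p 0.00712). For gels in control cells (-0.02) and the knockout in gels (-0.08) it was not called. The HMOX1 calls were not recomputed under the alternatives. GCLM, a subunit of the enzyme that starts glutathione synthesis, was higher in knockout cells in both cultures (log2 0.52 in gels, adjusted p 2.69e-08, and 0.47 in monolayers, adjusted p 4.18e-07). Of the list, 3 were higher and 1 lower in knockout gels, GCLC (log2 0.41), which encodes the other subunit, and the chaperone gene DNAJB1 (-0.22) among them. In knockout monolayers 4 were higher and 1 lower, with HSPA1B at 0.29 and SLC7A11 at -0.52.
Of 9 copper genes, all tested, 1 was higher and 1 lower in gels against monolayers in knockout cells, and 2 were higher and 1 lower in control cells, where DESeq2 called none, against the shares of all tested genes given above. CCS, the copper chaperone of superoxide dismutase, was among the lower in both (log2 -0.44, adjusted p 0.00154, and -0.30, adjusted p 0.0286). The copper importer SLC31A1 was higher in both (log2 0.26 and 0.19), and SCO2, a copper chaperone of mitochondria, was higher in control cells (0.35). All 3 calls in control cells were lost without the first control monolayer library or the first control gel library (adjusted p up to 0.279), and that of SLC31A1 in knockout cells without the first knockout monolayer library (0.122). Without the second control gel library SLC31A1 (0.115) and CCS (0.051) were lost in control cells. In knockout against control, 2 were higher and 1 lower in each culture, among them the copper exporter ATP7B, which was lower (log2 -0.43 in gels, adjusted p 0.0248, and -0.59 in monolayers, adjusted p 0.00224). The ATP7B call in gels was lost without any 1 of the 4 gel libraries and with DESeq2 (adjusted p up to 0.136), and the call in monolayers under no alternative. The higher genes were SLC31A2, a copper transporter of vesicles (log2 0.37 in gels and 0.52 in monolayers), the mitochondrial SCO1 in gels (0.18) and SCO2 in monolayers (0.34). SLC31A2 in gels was lost without any 1 of the 4 gel libraries (adjusted p up to 0.147), SCO2 without any 1 of the 4 monolayer libraries (up to 0.177), and SCO1 without either control gel library or the second knockout gel library (up to 0.562).

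Glucocorticoid target genes were listed because that receptor also induces MT2A. Of 10 genes, the receptor included, 9 were tested. In gels against monolayers 4 were higher and 3 lower in knockout cells and 3 higher and 2 lower in control cells, with medians of 0.01 and -0.10, where 20.1% of all tested genes were higher and 17.9% lower in knockout cells and 16% and 10.7% in control cells. The higher ones were led in both by the phosphatase gene DUSP1 (log2 3.52 and 2.85), the kinase gene SGK1 (2.14 and 2.13) and TSC22D3 (1.69 and 1.37), while KLF9 (log2 -0.54 and -0.47) and ERRFI1 (-0.36 and -0.29) were lower in both and CEBPD (-0.63) in knockout cells. DUSP1 had 524 and 534 CPM in knockout gels against 46.2 and 45.9 CPM in knockout monolayers, and 410 and 429 CPM in control gels against 55.3 and 61.4 CPM in control monolayers. DUSP1 and SGK1 are also induced within minutes by serum and stress, and what part the harvest had in their levels, or in those of MT1E and SLC30A1, was not tested. In knockout against control 4 were higher and 2 lower in gels, where FKBP5 (log2 0.47), SGK1 (0.37) and DUSP1 (0.34) were higher. In monolayers 2 were higher, CEBPD (0.41) and SGK1 (0.36), and 2 lower, among them DUSP1 (-0.34). The CEBPD call was lost without the first knockout monolayer library (adjusted p 0.0733), and that of SGK1 without either knockout monolayer library or the second control one (up to 0.219).

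To set the pattern of each gene beside the rest of the table, log2 CPM were centred over the 8 libraries and compared with 10740 tested genes by the root mean square difference. Nearest to MT2A, whose own root mean square deviation was 0.42, were EHD1 (0.050), PTX3 (0.057) and HBEGF (0.062), and nearest to MT1E (0.97) were ZFP36 (0.0706), CXCL2 (0.150) and SGK1 (0.207). Nearest to MT1X (0.61) were KLF4 (0.136), RASD1 (0.154) and B3GALT5 (0.166), and nearest to SLC30A1 (0.72) were EGR1 (0.163), RGS2 (0.174) and ADAMTS1 (0.228). As a description, with no test since the pattern chose them, the log2 difference between gels and monolayers was 1.90 in knockout cells and 1.96 in control cells for ZFP36, which encodes an mRNA decay factor, and 1.41 and 1.74 for EGR1, a zinc finger transcription factor induced by growth factors. MTF1 varied little (0.095), and its nearest genes were FAM32A, EDF1 and YWHAB, each within 0.0239. These are descriptions of 8 libraries in 4 groups, in which any gene that differs mainly between gels and monolayers comes close to another such gene of the same size.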

How the data were processed

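The authors' table, used as deposited, gives raw counts for each gene symbol, whole numbers with 1 column for each of 8 poly(A) RNA-seq libraries. Per the submitters' processing notes the tools were FastQC 0.11.9, STAR 2.7.9a, featureCounts and R 4.1.1, and the genome was hg38. Neither the annotation nor the strand setting of the counting is stated, so overlapping and near-identical genes are uncertain.

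Of 61228 genes, 15568 passed filterByExpr of edgeR (minimum count 10) and held 99.89% of counts. TMM scaling and the robust quasi-likelihood F-test of edgeR 4.0.16 (R 4.3.3) were used, with all 8 libraries in a model of 4 group means and 4 residual degrees of freedom. For MT2A, MT1E, MT1X, SLC30A1 and MTF1 the tests and 95% intervals used 34.3 degrees of freedom in total. Most of these came from sharing the estimate of spread across genes. Two-sided p-values were corrected by the Benjamini-Hochberg procedure across the 15568 genes, and genes under 0.05 were called. CPM uses TMM factors, ± after a log2 fold change is an SE (the fold change divided by the root of F), and ± after a mean is the SD. Replicate numbers were not used to pair libraries across groups, since the labels give no shared batch for them. The correlation of replicate differences lay between -0.0777 and 0.11 over 6 pairs of groups, which does not exclude a pairing. The test was run on simulated counts before use. Alternatives were DESeq2 1.42.0, other scalings, no filter, a fit of the compared groups only, a replicate block, a length and GC correction, and leaving out each library.

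The genes and lists were chosen with earlier results of these data known. From each list up to 3 genes with the smallest adjusted p per comparison were named, some also with their values in other comparisons, and HMOX1, KLF9 and ERRFI1 were named after their values were seen. Genes with the nearest pattern had a mean of at least 5 CPM (log2 of CPM plus 0.5). Positions and coding sequences (principal transcripts) are from GENCODE 29, and promoter windows from RefSeq.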

Additional observations from a re-analysis of the deposited data

Results flagged for a closer look

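The effect of the knockout on SLC30A1 differed between cultures: it was 0.16 in gels and 0.66 in monolayers on the log2 scale, a difference of -0.49 (edgeR adjusted p 0.00349). Without the second knockout monolayer library the difference was -0.35 (adjusted p 0.069), and over the alternatives the adjusted p lay between 0.000172 and 0.069. The cystine transporter gene SLC7A11, whose product feeds glutathione synthesis, had 146 and 162 CPM in knockout gels against 129 and 144 CPM in control gels, and 99.5 and 110 CPM in knockout monolayers against 160 and 139 CPM in control monolayers, a difference of effects of 0.69 (adjusted p 0.00252). The chaperone gene HSPA1B had 84.2 and 85.5 CPM in knockout gels against 87.8 and 89.2 CPM in control gels, and 115 and 110 CPM in knockout monolayers against 89.1 and 95.5 CPM in control monolayers, a difference of -0.35 (adjusted p 0.00359). That difference was lost without the first control monolayer library (adjusted p 0.0735, the highest over its alternatives). DUSP1 was higher in knockout gels than in control gels (log2 0.34) and lower in knockout than in control monolayers (log2 -0.34), a difference of 0.67 (adjusted p 1.29e-07). FKBP5, a chaperone of the glucocorticoid receptor, had 121 and 125 CPM in knockout gels against 92.0 and 84.5 CPM in control gels, and 80.4 and 78.2 CPM in knockout monolayers against 77.5 and 83 CPM in control monolayers, a difference of 0.49 (adjusted p 0.00012). What these differences come from was not tested, and each includes the control monolayers, whose label names no Cas9.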

How the results depend on the processing

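For the 5 tested genes, 394 values were recomputed under alternatives: 380 kept their direction and their side of the threshold, 1 lost its call, 3 gained one and 10 changed sign. The calls of MT2A, MT1E, MT1X and SLC30A1 in gels against monolayers and of SLC30A1 in monolayers were made under every alternative. The sign changes were all of values that were not called. For knockout against control in monolayers, MT2A was -0.0008834 with upper-quartile factors, -0.003572 with library totals alone, -0.004281 without the filter, -0.003661 with only the groups compared, -0.05504 with the length and GC correction, and -0.01076 to 0.01626 when a library was left out. For MT2A the difference of knockout effects was 0.02477 with the length and GC correction, and for MTF1 the knockout effect in gels was -4.73e-05 to 0.1002 when a library was left out. For ETV5 the difference of knockout effects was 0.0009186 with DESeq2 size factors in edgeR, 0.005708 with library totals alone, 0.005197 without the filter, 0.001338 with DESeq2, 0.001078 with the length and GC correction, and -0.07084 to 0.0535 when a library was left out. When a library was left out, ETV5 was -0.03433 to 0.08557 for the knockout in gels, -0.01544 to 0.07275 for the knockout in monolayers and -0.06143 to 0.05852 for gels in control cells, and ETV1 was -0.11 to 0.03265 for gels in knockout cells. ETV4 for gels in knockout cells was -0.00539 with library totals alone.

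With DESeq2 the counts of called genes were 1835 for the knockout in monolayers (2989 with edgeR), 2479 in gels (3721), 2431 for gels in control cells (4158) and 678 for the difference of knockout effects (1028). When a library was left out they were 1848 to 3224, 2106 to 3914, 2144 to 4501 and 413 to 1334 in the same order. With a replicate block they were 3187, 3937, 4435 and 1203, and 6108 for gels in knockout cells (5915 without it), and no call of the 5 tested genes changed. Of 53 calls of genes named from the lists, 28 held under every alternative and 25 were lost under at least 1. The cause was not tested.

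Groups of 2 libraries limit precision for every gene, and low counts limit MT1X (66 to 260 per library) and MT1F (2 to 10). Metallothionein transcripts are short: MT1X, MT2A and MT1E were longer than 1.94%, 4.61% and 4.92% of tested genes with a length. The shortest 1345 of the 13440 tested genes with a length (up to 940 bases) had a median log2 fold change in gels of 0.04 in knockout cells and 0.05 in control cells.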
